A study of Mus musculus with 28 samples.

Results

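A group of 10 genes used as markers of tissue macrophages, out of 32594 in the count table, was followed through the whole pituitary of 28 mice: Cd68, Aif1, Csf1r, C1qa, C1qb, C1qc, Cx3cr1, Tyrobp, Mrc1 and Cd163. The mice were wild-type C57BL/6J, 16 females and 12 males, 8 weeks old on arrival, and polyadenylated RNA of each gland was sequenced. Home cage controls (4 females, 4 males) were neither sleep deprived nor restrained. Restraint mice (4 females, 2 males) spent 20 min in a restrainer and were killed 10 min after it. PSD mice (4 females, 3 males) spent 12 h on small platforms over water, a procedure called paradoxical sleep deprivation, and were killed 18 h after it ended. By the study's account the method cuts REM sleep markedly and non-REM sleep in part. PSD + restraint mice (4 females, 3 males) had both, with restraint at the end of the 18 h. Mice of every group, controls included, had been adapted to the platform tanks beforehand, so no group was naive to them. The comparisons ask how sleep loss and an acute stressor, alone and together, bear on these genes in each sex.

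Macrophages are resident phagocytes found in most organs, the pituitary included, where they lie among endocrine cells and along vessels, and microglia are the related cells of neural tissue such as the posterior lobe. They depend on signals through the receptor Csf1r, clear dying cells and debris into lysosomes, and make the C1q complex that opens the classical complement pathway. In RNA from a whole gland the level of such a gene joins the number of macrophages with the RNA that each holds, so that more cells and more RNA per cell cannot be told apart here.

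Cd68 lies at chr11:69664213-69666153 on the minus strand of GRCm38, and the C1q subunit genes lie side by side on the minus strand of chromosome 4, C1qb at chr4:136880129-136886187, C1qc at chr4:136889804-136893065 and C1qa at chr4:136895917-136898803. The 250 bases before the RefSeq start site (GRCm38.p6, 5′ to 3′ on the gene's strand) are given for Cd68, C1qb and C1qc. Cd68 was the only marker for which every female with PSD was above every female without it. C1qb and C1qc rose and fell together from mouse to mouse. The windows are chr11:69666171-69666420, chr4:136886201-136886450 and chr4:136892915-136893164. Capitals mark GAGGAA, the core of the motif bound by PU.1 (the myeloid transcription factor encoded by Spi1), read on either strand as GAGGAA or TTCCTC.
Cd68: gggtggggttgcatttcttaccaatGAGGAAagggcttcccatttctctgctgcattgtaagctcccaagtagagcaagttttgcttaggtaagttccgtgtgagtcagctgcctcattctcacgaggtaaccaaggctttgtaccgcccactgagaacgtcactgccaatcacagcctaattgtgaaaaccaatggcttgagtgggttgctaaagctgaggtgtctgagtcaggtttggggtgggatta
C1qb: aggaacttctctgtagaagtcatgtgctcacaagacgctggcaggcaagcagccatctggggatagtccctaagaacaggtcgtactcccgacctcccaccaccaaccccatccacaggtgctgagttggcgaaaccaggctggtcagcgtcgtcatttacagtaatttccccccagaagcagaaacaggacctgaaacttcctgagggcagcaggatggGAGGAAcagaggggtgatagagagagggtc
C1qc: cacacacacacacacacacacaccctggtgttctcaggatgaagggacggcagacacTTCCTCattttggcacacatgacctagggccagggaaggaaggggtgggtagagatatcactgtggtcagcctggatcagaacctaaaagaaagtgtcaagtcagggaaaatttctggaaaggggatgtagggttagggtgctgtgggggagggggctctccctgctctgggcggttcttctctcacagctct
GAGGAA began 225 bases before the start site of Cd68, 30 bases before that of C1qb and 193 bases before that of C1qc. It was found on either strand in 5 of the 7 marker promoters that the RefSeq table holds (those 3, Aif1 and Mrc1), against 23.3% of all 32851 promoters of the same length. The E-box CACGTG was in 0 of the 7 and in 6.02% of all. These are matches of letters and were not tested as binding sites.

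Libraries held between 14024465 and 52948531 counts on genes, with a median of 33389717. Levels are given as CPM, counts scaled to library size with TMM factors that adjust for composition. Some libraries stood apart in genes of other cell types. PSD female 1 and PSD + restraint female 4 had summed levels of 10 forebrain genes of 145.5 and 113.3 CPM, against 25.05 to 69.45 CPM in the other 26 mice. Male control 1 had 398.1 CPM of 10 neurointermediate lobe genes, against 1301 to 4502 CPM elsewhere, and PSD + restraint male 2 had 131.7 CPM of neutrophil genes, against at most 27.2 CPM elsewhere. The neurointermediate lobe sum also moved with treatment. It lay between 1332 and 1989 CPM in control females, 1301 and 2871 CPM in restraint females, 1870 and 4502 CPM in PSD females and 1966 and 3204 CPM in PSD + restraint females. All 10 genes of that list had a positive log2 fold change with PSD averaged over restraint in females, and 1 of them (Pcsk2) was called, as was 1 of 7 forebrain genes tested (Slc17a7). In males the lobe sum was 398.1 to 1873 CPM in controls, 1436 to 2108 CPM after restraint, 1862 to 2602 CPM after PSD and 1922 to 3544 CPM after PSD + restraint, and 0 genes of either list were called. In all mice 2 of the 10 lobe genes (Pcsk2 and Oacyl) were called higher with PSD averaged over restraint and 4 of 10 (with Vax1 and Esm1) for PSD + restraint against control, where 0 of 9 forebrain genes were. Microglia of the posterior lobe belong to the tissue these genes mark, and the part of tissue proportion in the results below was not tested beyond the fits with these scores as covariates.

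**Figure D1:**
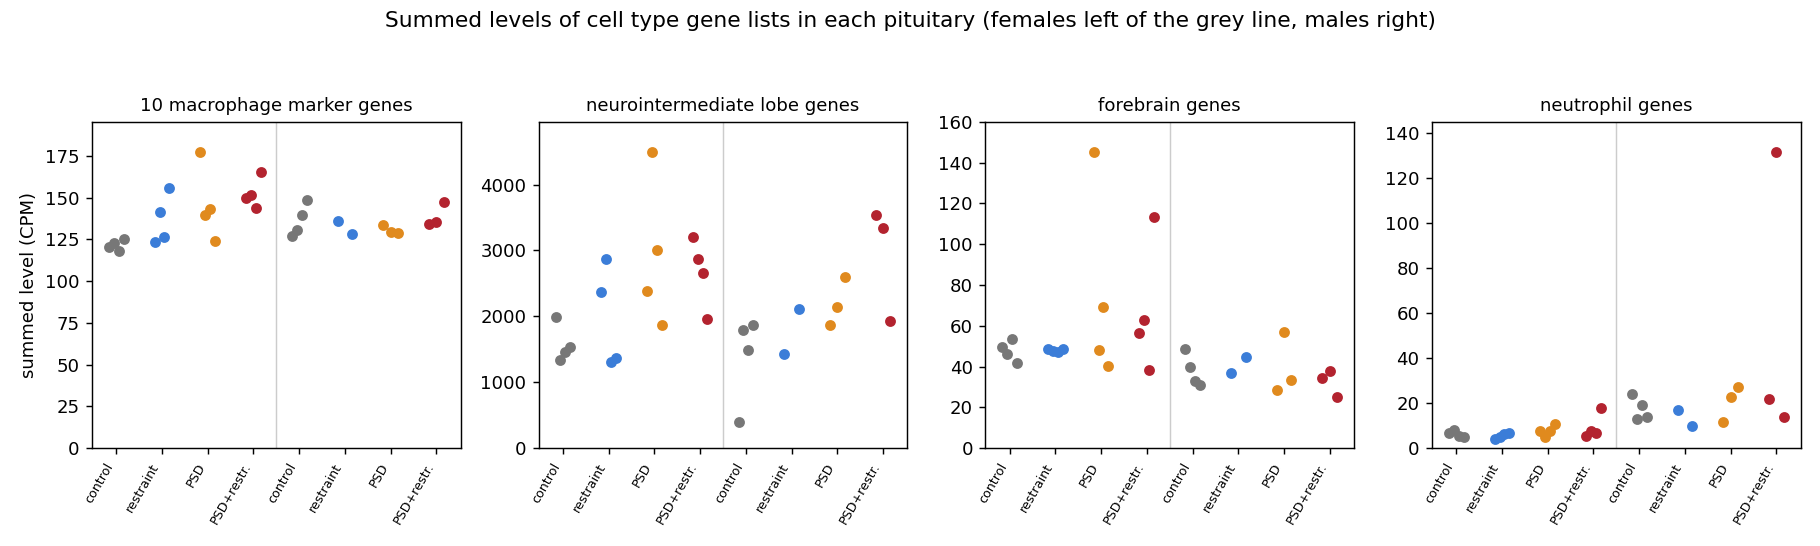
Summed CPM of the 10 macrophage marker genes and of the neurointermediate lobe, forebrain and neutrophil gene lists, with 1 point per mouse and 1 column per group (females left of the grey line). The macrophage sum spans 118 to 125 CPM in control females and 143 to 165 CPM in PSD + restraint females, and the points far from their columns are the libraries named in the text.

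All 10 marker genes were detected in all 28 mice, with 12 counts (Cd163) to 1651 counts (C1qa) in a library. On the TPM scale, which corrects for transcript length as well as library size, C1qa had a mean level of 34.2, C1qc 31.3 and C1qb 31.2. Tyrobp followed at 19.3 TPM, Csf1r at 16.2 TPM and Cd68 at 10.3 TPM. Aif1 (5.14 TPM), Cx3cr1 (4.36 TPM), Mrc1 (1.15 TPM) and Cd163 (0.402 TPM) were lower. In this order C1qa, C1qc and C1qb did not differ beyond their spread over mice (SD 4.81, 4.13 and 4.17 TPM), nor did Tyrobp and Csf1r (SD 3.72 and 2.27 TPM) or Aif1 and Cx3cr1 (SD 1.06 and 0.709 TPM). The other neighbours lay further apart than the sum of their SDs.

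**Figure D2:**
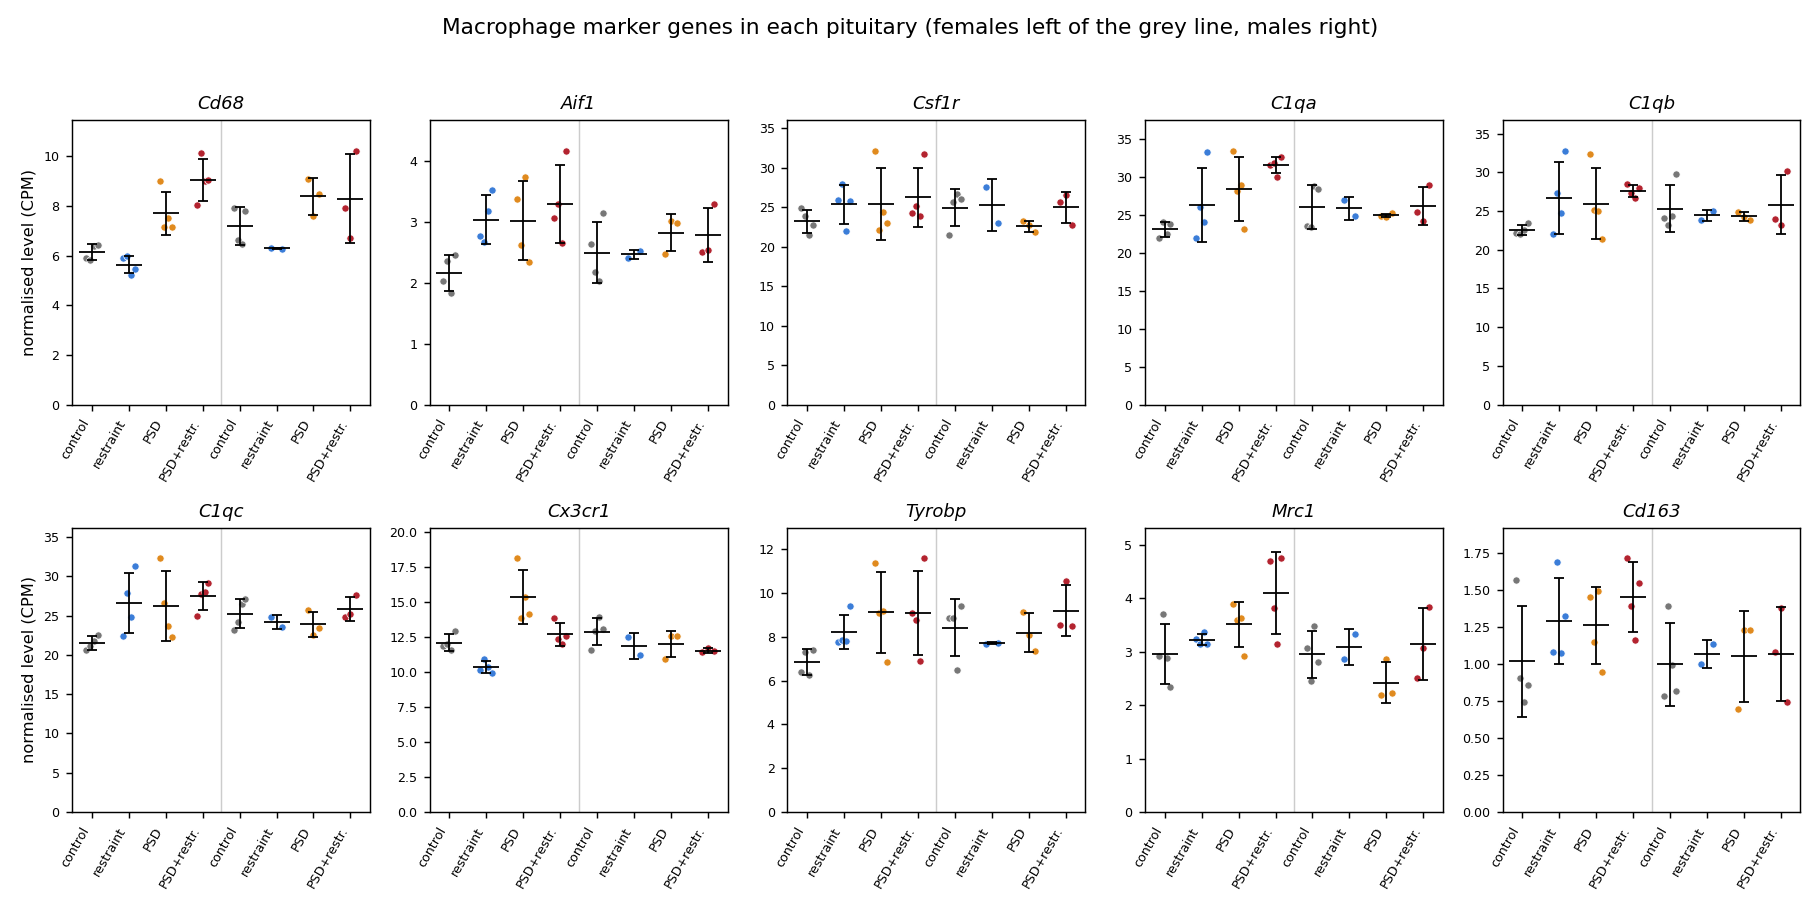
CPM of the 10 marker genes in each mouse (points) with the group mean and SD (bars), 8 groups per gene, females left of the grey line and males right, each axis starting at 0. Cd68 in the 8 females with PSD sits above all 8 females without it, and Cx3cr1 is lowest in restraint females and highest in PSD females.

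Cd68, a lysosomal glycoprotein of phagocytes, rose with PSD in females. It was 5.89, 5.84, 6.38 and 6.44 CPM in control females and 5.89, 5.98, 5.23 and 5.46 CPM in restraint females. In PSD females it was 8.99, 7.15, 7.51 and 7.14 CPM, and in PSD + restraint females 8.05, 10.1, 9.02 and 9.03 CPM. Every female with PSD was above every female without it, which was so for 1 of the 10 markers and for 0.343% of the 18059 genes tested in females. A gene counts as called here when its edgeR quasi-likelihood p, adjusted by Benjamini-Hochberg over all genes, was 0.05 or less and its log2 fold change was 0.322 or more in either direction. Averaged over restraint, PSD raised Cd68 by 0.51 ± 0.0704 (log2, SE), a fold of 1.42 (adjusted p = 0.00380), where 2.88% of genes were called and Cd68 was 1 of 10 markers.

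Within that average, the rise was 0.57 ± 0.0993 on the log2 scale for PSD + restraint against control females (adjusted p = 0.00590, 2 of 10 markers called, 2.2% of genes) and 0.69 ± 0.0992 for PSD + restraint against restraint females (adjusted p = 0.0189, 1 of 10 markers, 0.0332% of genes). For PSD alone against controls the value was 0.33 ± 0.0999 with an adjusted p of 0.135, where 0 of 10 markers and 0.0277% of genes were called. Restraint alone gave -0.11 ± 0.0991 (adjusted p = 0.798), with 0 of 10 markers and 0.543% of genes called. At an unadjusted p under 0.05 these comparisons held 6 of 10 markers for PSD (19.8% of genes) and 4 of 10 for restraint (9.77%), and DESeq2 called 0 in both. The difference between the PSD effect with and without restraint was 0.36 (log2, unadjusted p = 0.0216, adjusted p = 0.961), and 0 genes were called for it. Without PSD female 1 the value averaged over restraint was 0.46 (adjusted p = 0.00738), and it lay between 0.46 and 0.53 with each of the 16 females left out in turn, with the call held each time. With the forebrain score as a covariate it was 0.43 (adjusted p = 0.0154), and with the neurointermediate lobe score 0.49, where the adjusted p rose to 0.0742. Over all genes, calls for this comparison fell from 521 to 101 with the forebrain score and to 3 with the lobe score. In this comparison a female call lost with either score was thus the common case and not particular to the genes named here. That does not carry over to PSD + restraint against control, whose counts with the forebrain score are given with C1qa below. The call against restraint females was lost without restraint female 1, 3 or 4 or PSD + restraint female 2, 3 or 4, with adjusted p from 0.0571 to 0.123 and log2 fold changes from 0.63 to 0.73 over all 16 fits.

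In males Cd68 was 7.90, 6.62, 6.46 and 7.80 CPM in controls and 6.30 and 6.28 CPM in the 2 restraint mice. It was 9.09, 7.59 and 8.46 CPM in PSD males and 7.94, 6.70 and 10.2 CPM in PSD + restraint males. Of the 6 males with PSD, 4 were above the highest male without it, and the groups overlapped. The value averaged over restraint was 0.30 ± 0.108 on the log2 scale (adjusted p = 0.208, 95% interval 0.09 to 0.52), with 0 of 10 markers and 0.454% of genes called. The female and male responses were not shown to differ. Their difference was 0.11 for PSD against control (adjusted p = 0.854) and 0.37 for PSD + restraint against control (unadjusted p = 0.0326, adjusted p = 0.674). With all 28 mice and sex as a term, Cd68 rose by 0.42 ± 0.0628 with PSD (adjusted p = 3.48e-04, 1 of 10 markers, 2.52% of genes), by 0.40 ± 0.0857 for PSD + restraint against control (adjusted p = 0.00276, 1 of 10, 5.46% of genes) and by 0.57 ± 0.0926 against restraint (adjusted p = 0.00462, 1 of 10, 0.0951% of genes). The lobe sum moved with PSD in these mice too, and with its score as a covariate the 3 values were 0.47, 0.48 and 0.61, each still called. Only the last was lost under another setting, with the groups compared fitted alone (0.57, adjusted p = 0.0829).

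**Figure D3:**
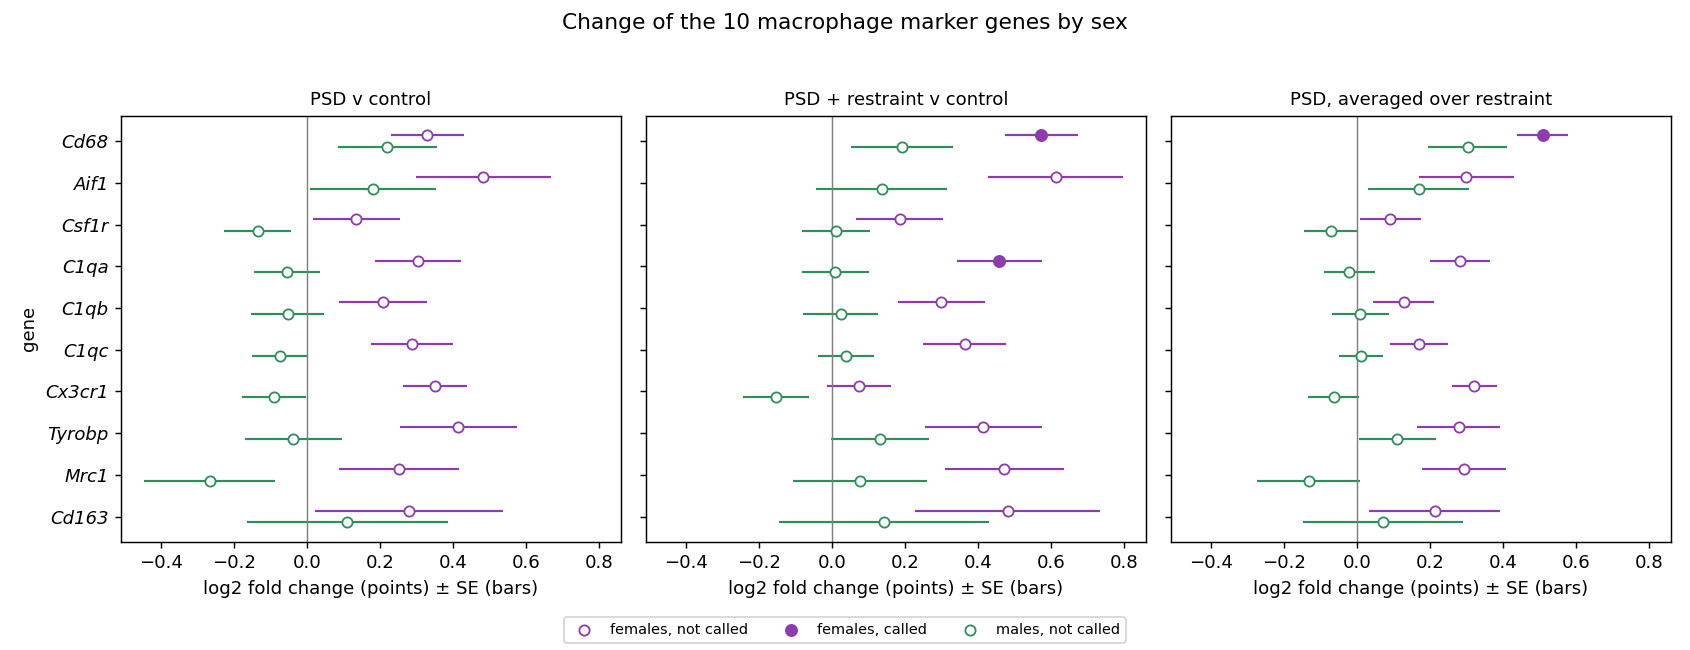
Log2 fold changes (points) with SE (bars) of the 10 marker genes for PSD against control, PSD + restraint against control and PSD averaged over restraint, females purple and males green, with filled points for called genes. All 10 female points lie right of 0 in each panel, while male points lie on both sides.

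The C1q subunit genes encode the A, B and C chains of C1q, which are assembled together, and C1qa alone among them was called with all females in the fit. C1qa was 22.0, 24.0, 22.5 and 23.8 CPM in control females and 22.0, 26.1, 24.1 and 33.2 CPM in restraint females. It was 33.5, 28.2, 29.0 and 23.1 CPM in PSD females and 31.6, 31.9, 30.1 and 32.6 CPM in PSD + restraint females. All PSD + restraint females were above all control females, whereas the restraint and PSD groups reached from the control range to as high as the combined group. The log2 fold change for PSD + restraint against control was 0.46 ± 0.117 (adjusted p = 0.0476). That call was lost when any control or any PSD + restraint female was left out, and also without restraint female 2, PSD female 2 or PSD female 3, with adjusted p from 0.0549 to 0.120. It was also lost with DESeq2 size factors, with no filter on low counts and with the replicate number as a block. The call was lost too with the forebrain score (0.39, adjusted p = 0.0760) and with the lobe score (0.47, adjusted p = 0.293). For this comparison 368 genes were called with the forebrain score and 48 with the lobe score, against 398 without either.

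C1qb was 22.1, 22.0, 22.5 and 23.5 CPM in control females and 28.5, 27.3, 26.7 and 27.9 CPM in PSD + restraint females, a log2 fold change of 0.30 ± 0.119 (adjusted p = 0.172). C1qc was 20.6, 21.1, 21.8 and 22.6 CPM against 24.9, 27.8, 28.03 and 29.2 CPM, a log2 fold change of 0.36 ± 0.112 (adjusted p = 0.0874). Neither subunit overlapped between these groups although neither was called. C1qc was called when only the groups compared were fitted, where 511 genes were called. Cd68, Aif1 and the 3 C1q genes, 5 of the 10 markers, had every PSD + restraint female above every control female, as had 6.82% of genes. In males C1qa was 23.6, 23.4, 28.8 and 28.5 CPM in controls and 25.4, 24.2 and 29.0 CPM in PSD + restraint mice, with a log2 fold change of 0.01 ± 0.0920, where 0 of 10 markers and 2.56% of genes were called.

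Within groups the 3 subunits moved together. Pearson's r of the deviations of log2 CPM from the group mean, over 28 mice that share each library's depth and scaling, was 0.88 for C1qa with C1qb, 0.84 for C1qa with C1qc and 0.84 for C1qb with C1qc, against a median of 0.311 over all 45 pairs of markers. The ratio of C1qa to C1qb counts was between 0.993 and 1.09 in control females and between 1.11 and 1.17 in PSD + restraint females, so that these did not overlap, while in males it was between 0.956 and 1.18 in controls and between 0.959 and 1.06 in PSD + restraint mice. This ratio was singled out after its values were seen and was not tested.

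**Figure D4:**
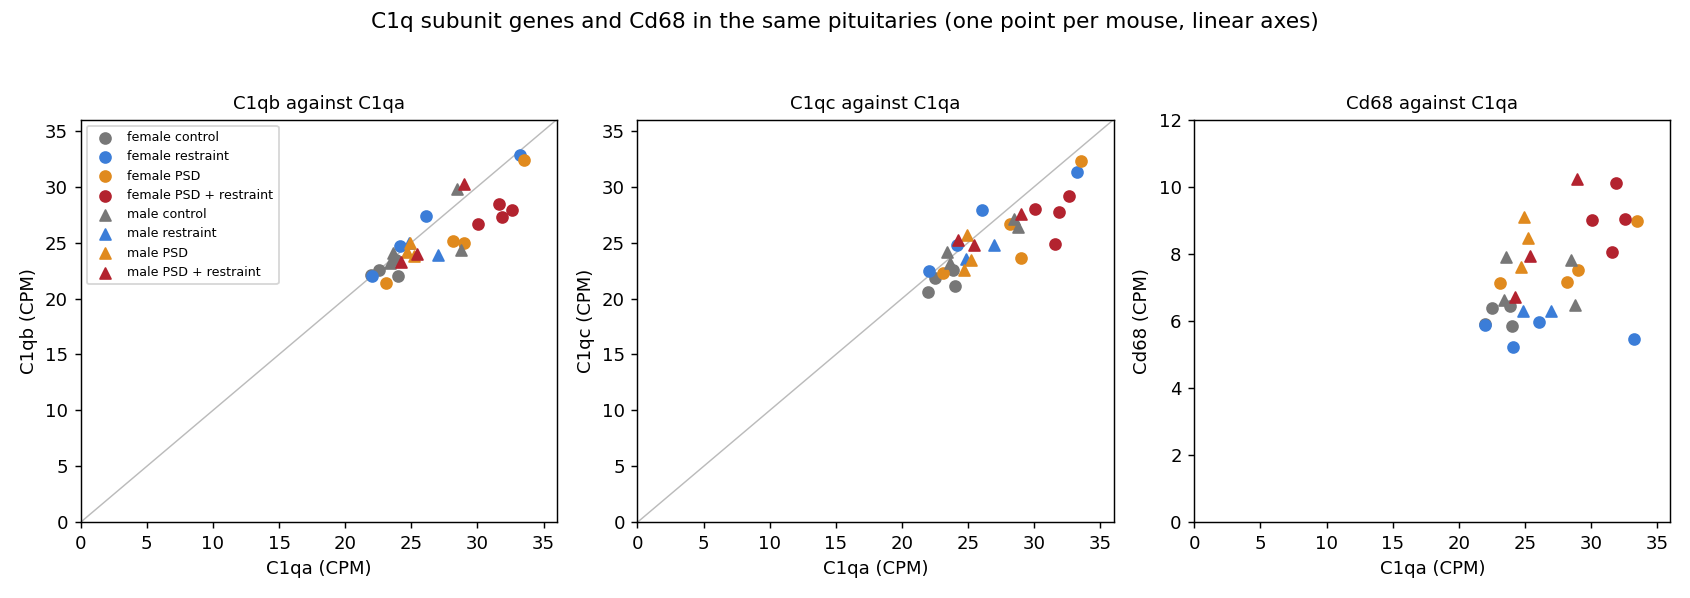
CPM of C1qb, C1qc and Cd68 against C1qa in the same mice (1 point per mouse, circles for females, triangles for males, coloured by treatment), with linear axes and a grey line of equality in the first 2 panels. C1qb and C1qc follow C1qa near the line, with PSD + restraint females below it, and Cd68 spreads between 5.23 and 10.2 CPM at similar C1qa.

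Cx3cr1, the fractalkine receptor of microglia and many tissue macrophages, had values of opposite sign for restraint and PSD in females, neither of them called. It was 11.8, 12.0, 11.6 and 12.9 CPM in control females, 10.1, 10.9, 10.4 and 9.90 CPM in restraint females, 18.1, 13.9, 15.3 and 14.1 CPM in PSD females and 13.9, 12.3, 12.0 and 12.6 CPM in PSD + restraint females. All restraint females were below all controls, as for 3.17% of genes, and all PSD females above them, as for 3.83% of genes. The log2 fold change was -0.22 ± 0.0871 for restraint (adjusted p = 0.408), 0.35 ± 0.0873 for PSD (adjusted p = 0.109) and 0.07 ± 0.0876 for PSD + restraint (adjusted p = 0.675). For PSD alone the adjusted p fell to 0.0362 without PSD female 4, and the log2 fold change fell to 0.25 without PSD female 1.

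Averaged over restraint the PSD effect on Cx3cr1 in females was 0.3216 ± 0.0618 (log2, adjusted p = 0.0162), just under the fold limit of 0.322 and so not called. Cx3cr1 was called with 7 of the 16 females left out singly (control 4, restraint 2 or 3, PSD 2 or 4, PSD + restraint 2 or 3), and had a log2 fold change of 0.27 without PSD female 1. In males it was 11.6, 12.9, 13.9 and 13.1 CPM in controls, 12.5 and 11.2 CPM in restraint mice, 10.9, 12.6 and 12.5 CPM in PSD mice and 11.4, 11.7 and 11.5 CPM in PSD + restraint mice. None of the 6 males with PSD was above the median of the males without it, against 8 of 8 females. The female response to PSD against control exceeded the male one by 0.45 ± 0.120 (log2, unadjusted p = 0.00109), which failed the correction over genes (adjusted p = 0.302), and 0 of 18936 genes were called for this difference. Reads of Cx3cr1 (chr9:119901616-120069879, minus strand) and of Wdr48, which overlaps it on the other strand, can be told apart only if strand was used in counting. Wdr48 had a log2 fold change of -0.11 for PSD against control in females (adjusted p = 0.353).

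Csf1r, the receptor for the macrophage growth factors Csf1 and Il34, had the smallest log2 fold change of the 10 markers with PSD averaged over restraint in females. It was 24.9, 23.8, 21.5 and 22.7 CPM in control females, 25.9, 27.9, 22.0 and 25.8 CPM in restraint females, 32.2, 22.2, 24.4 and 23.0 CPM in PSD females and 24.3, 25.2, 23.9 and 31.8 CPM in PSD + restraint females. The groups overlapped, and the 2 highest mice, PSD female 1 and PSD + restraint female 4, were those with the highest forebrain sums. The PSD effect averaged over restraint was 0.09 ± 0.0837 in females (log2, 95% interval -0.07 to 0.26) and -0.07 ± 0.0724 in males (-0.21 to 0.07), and with the forebrain score as a covariate the female value was -0.06. Csf1r overlaps Hmgxb3 on the other strand, so the same limit on strand holds for it, and Hmgxb3 had a log2 fold change of -0.09 in females in this comparison (adjusted p = 0.325).

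Of the 14 ligands, adaptors and partners of the markers, 13 were tested in females and 2 were called higher with PSD averaged over restraint, Il34 and Trem2, against 1.93% of genes called higher. Il34 was 3.09, 3.17, 2.88 and 1.85 CPM in control females and 3.16, 2.60, 2.53 and 2.17 CPM in restraint females. It was 6.54, 5.13, 6.67 and 2.92 CPM in PSD females and 4.47, 4.19, 3.78 and 5.13 CPM in PSD + restraint females. Of the 8 females with PSD, 7 were above the highest without it, and PSD female 4 was not. The log2 fold change was 0.84 ± 0.166 (adjusted p = 0.0177), and the call held with each female left out, with a highest adjusted p of 0.0433. It was 0.64 with the forebrain score as a covariate (adjusted p = 0.0720) and 0.68 with the neurointermediate lobe score (adjusted p = 0.252). In males Il34 was 1.94 to 3.10 CPM without PSD and 3.20 to 3.78 CPM with it, so that all 6 males with PSD were above all 6 without, as for 0.865% of genes, and the log2 fold change was 0.42 ± 0.126 (adjusted p = 0.142). In all mice it was 0.66 ± 0.116 (adjusted p = 0.00171), held with each of the 28 mice left out and with either score (adjusted p = 0.00517 and 0.0113).

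Csf1, the other Csf1r ligand, and Cx3cl1, the ligand of Cx3cr1, were not called. Csf1 had a log2 fold change with PSD of 0.16 ± 0.0721 in females (adjusted p = 0.159) and 0.22 ± 0.0959 in males (adjusted p = 0.297). Cx3cl1, at 103 to 143 CPM over all females, had values of 0.16 ± 0.0604 in females (adjusted p = 0.115) and 0.08 ± 0.0910 in males (adjusted p = 0.722).

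**Figure D5:**
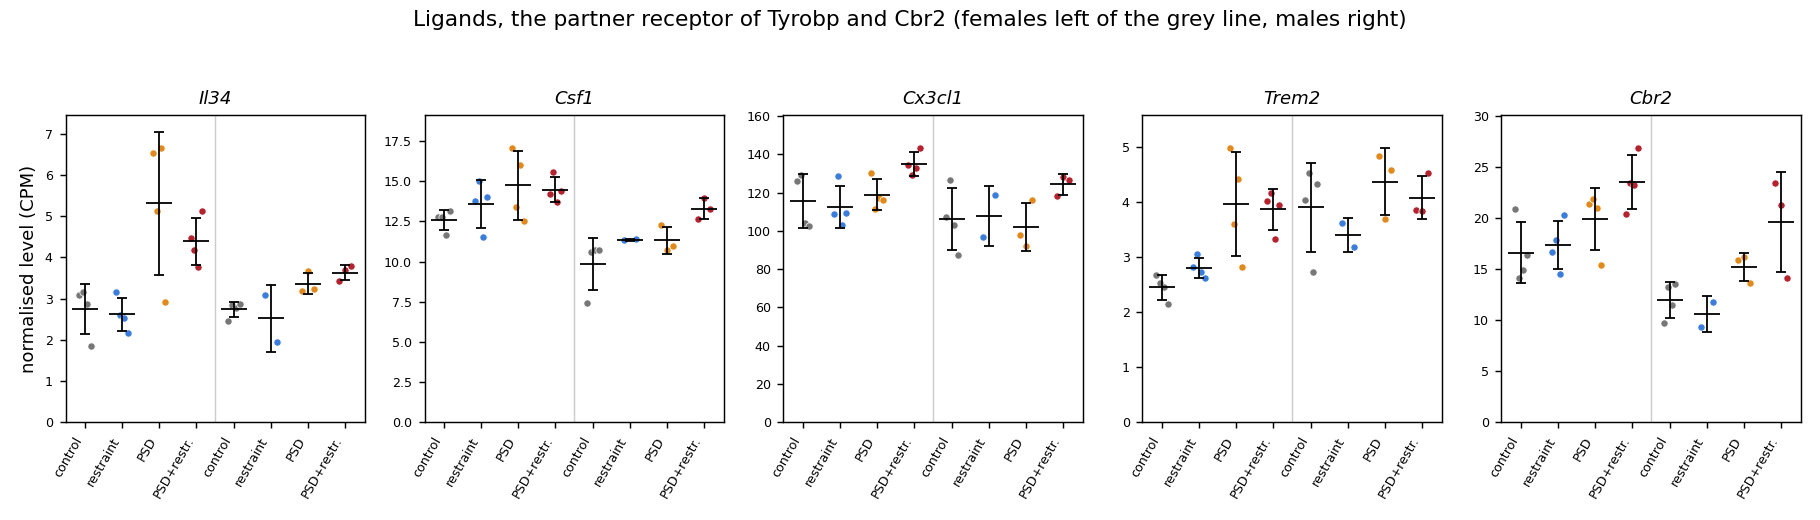
CPM of the Csf1r ligands Il34 and Csf1, the Cx3cr1 ligand Cx3cl1, the Tyrobp partner Trem2 and the perivascular macrophage gene Cbr2 in each mouse (points) with group mean and SD (bars), females left of the grey line and males right. Il34 sits at 2.92 to 6.67 CPM in the 8 females with PSD and at 1.85 to 3.17 CPM in the 8 without.

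Tyrobp, the adaptor DAP12 through which Trem2 and other receptors signal, was 6.39, 7.28, 6.27 and 7.41 CPM in control females, 7.75, 7.87, 7.82 and 9.39 CPM in restraint females, 11.4, 9.06, 9.15 and 6.84 CPM in PSD females and 9.09, 8.79, 6.88 and 11.6 CPM in PSD + restraint females. Every restraint female was above every control female, as for 2.76% of genes, yet the log2 fold change of 0.27 ± 0.159 was not called (adjusted p = 0.639). With PSD averaged over restraint it was 0.28 ± 0.113 in females (adjusted p = 0.128) and 0.11 ± 0.105 in males (adjusted p = 0.644).

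Trem2, a lipid-sensing receptor that needs Tyrobp, was 2.68, 2.53, 2.45 and 2.14 CPM in control females and 2.83, 3.05, 2.73 and 2.61 CPM in restraint females. It was 4.99, 3.60, 4.43 and 2.82 CPM in PSD females and 4.03, 4.17, 3.32 and 3.95 CPM in PSD + restraint females, with PSD female 4 alone inside the range of females without PSD. The log2 fold change averaged over restraint was 0.57 ± 0.114 (adjusted p = 0.0177), called with each female left out (highest adjusted p 0.0488) and not with the forebrain score (0.42, adjusted p = 0.0716) or the neurointermediate lobe score (0.47, adjusted p = 0.247). Males had 2.73 to 4.53 CPM without PSD and 3.68 to 4.84 CPM with it, a log2 fold change of 0.21 ± 0.136 (adjusted p = 0.486).

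Aif1, the actin-binding protein IBA1 used to stain macrophages and microglia, was 2.02, 2.35, 1.82 and 2.45 CPM in control females and 2.77, 2.66, 3.18 and 3.53 CPM in restraint females. It was 3.38, 2.62, 3.73 and 2.35 CPM in PSD females and 3.06, 3.28, 2.65 and 4.17 CPM in PSD + restraint females. Control females were the lowest group, and both restraint and PSD + restraint females lay wholly above them. The log2 fold change was 0.50 ± 0.181 for restraint (adjusted p = 0.340), 0.48 ± 0.185 for PSD (adjusted p = 0.178) and 0.61 ± 0.184 for both (adjusted p = 0.0807), the largest value of the 10 markers in each of these 3 comparisons and called in none. It had 41 to 170 counts per female library, against 334 to 1651 for the C1q genes, so its counting error was the larger.

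Mrc1 and Cd163 encode the mannose receptor CD206 and the haemoglobin-haptoglobin receptor, which mark perivascular macrophages. Mrc1 was 2.93, 3.71, 2.88 and 2.34 CPM in control females and 4.70, 3.82, 3.14 and 4.75 CPM in PSD + restraint females, which overlapped, with a log2 fold change of 0.47 ± 0.163 (adjusted p = 0.121). Cd163 was 0.741 to 1.57 CPM in control females and 1.158 to 1.71 CPM in PSD + restraint females (0.48 ± 0.253, adjusted p = 0.302). With PSD averaged over restraint Mrc1 had 0.29 ± 0.115 in females (adjusted p = 0.118) and -0.13 ± 0.141 in males (adjusted p = 0.689).

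Among 10 other genes of perivascular macrophages, 9 were tested in females and 3 were called higher with PSD averaged over restraint. These were Cbr2 (carbonyl reductase 2, log2 fold change 0.35), Maf (a transcription factor, 0.41) and Sepp1 (selenoprotein P, 0.33), and the calls were lost with 13, 12 and 7 of the 16 females left out singly. All 3 were lost with the lobe score (adjusted p = 0.364, 0.472 and 0.252) and with the forebrain score (0.168, 0.123 and 0.114), and Maf had a log2 fold change of 0.16 with the former. Cbr2 was also called in males, where it was 9.32 to 13.5 CPM without PSD and 13.6 to 23.4 CPM with it, with all 6 males with PSD above all 6 without. The male value of 0.63 ± 0.128 (adjusted p = 0.0491) was lost with 10 of 12 males left out singly and with the forebrain score (adjusted p = 0.0612). In all mice the value was 0.45 ± 0.0827 (adjusted p = 0.00230), and it held with each mouse left out and with either score. Cbr2 is also made outside macrophages, so its level is not specific to them. Sepp1 had a mean of 136 CPM, against 26.7 CPM for C1qa, the highest of the markers, and which cells made it was not tested.

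Over the 10 markers the median log2 fold change in females was 0.22 for restraint, 0.30 for PSD, 0.44 for PSD + restraint and 0.28 for PSD averaged over restraint, against 0.00335 to 0.00937 over all genes tested in these comparisons. With PSD, alone, combined or averaged, all 10 values were positive. The markers come from the same libraries and some move together, so such counts are not of independent genes. The highest sums of the 10 markers were in PSD female 1 (177.6 CPM) and PSD + restraint female 4 (165.1 CPM), the libraries with the highest forebrain sums. Medians and signs without these mice or with the scores are not given. For PSD averaged over restraint 7 of 10 markers had an unadjusted p under 0.05, against 27.4% of genes. In males the median for that comparison was 0.01, 6 of 10 values were positive and 1 of 10 markers had an unadjusted p under 0.05, against 15.5% of genes.

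No marker was called in any of the 7 male comparisons by edgeR or DESeq2, and at an unadjusted p under 0.05 each held 0 or 1 of the 10. The shares of genes called in those not yet given were 0.296% for restraint and 0.00547% for PSD, each against control, 0.00547% for PSD + restraint against restraint, 0.285% for PSD + restraint against PSD and 0% for the dependence of PSD on restraint. In females 0 of 10 markers were called for PSD + restraint against PSD (0.941% of genes, 2 markers at an unadjusted p under 0.05). In all mice 0 of 10 were called for restraint (1.14% of genes), PSD (0.671%), PSD + restraint against PSD (2.01%) or the dependence of PSD on restraint (0%).

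The responses of the sexes were not shown to differ for any marker. For PSD against control the female response minus the male response was positive for all 10, and 5 of 10 had an unadjusted p under 0.05 against 10.8% of genes, but 0 markers and 0 genes were called by edgeR, and 0 markers by DESeq2. For PSD + restraint it was positive for all 10, with 3 of 10 at an unadjusted p under 0.05 and 0 called. Levels of the markers between females and males were also not called, over all groups (14.9% of genes) or in controls (10.7%), with the largest difference over all groups in Mrc1, at 0.24 ± 0.0945 higher in females on the log2 scale (adjusted p = 0.0527).

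Other myeloid lists had few calls for PSD averaged over restraint. Of 20 further genes of macrophages and monocytes, 1 (Trem2) was called higher in females and 1 (Ctss) lower in males, where it was 30.1 to 39.7 CPM without PSD and 21.0 to 27.8 CPM with it, a log2 fold change of -0.46 ± 0.0756 (adjusted p = 0.0285, lost without restraint male 2 or 3, PSD male 1 or 3 or PSD + restraint male 1 or 2). Of 10 microglia-enriched genes 1 was called higher in females, Fcrls (0.43 ± 0.0940, adjusted p = 0.0252, lost without control 4, restraint 4 or PSD + restraint 1 or 2, with the forebrain score at 0.34 and adjusted p = 0.0916, and with the lobe score at 0.38 and adjusted p = 0.260), and Tmem119 had 0.23 ± 0.0971 (adjusted p = 0.141). Of 20 lysosomal genes 0 were called in females, with a median log2 fold change of 0.03, and 1 (the membrane protein Cd63, 0.38, lost with 11 of 12 males left out singly) was called higher in males. For PSD + restraint against control in females, where 2.2% of genes were called, Trem2 (0.66, adjusted p = 0.0390) and Fcrls (0.61, adjusted p = 0.0231) were called higher. Those calls were lost with 7 and 5 of the 16 females left out singly, and both with the lobe score (adjusted p = 0.371 and 0.276). For PSD + restraint against control in all mice 2 of the 20 macrophage and monocyte genes were called higher, Cd14 (0.46) and Fcgr3 (0.35), where 5.46% of genes were called. Cd14 held with each of the 28 mice left out, and Fcgr3 was lost with 9 of them. Both held with the forebrain score and were lost with the lobe score (adjusted p = 0.0674 and 0.0597).

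Several of these genes also differed between the sexes in controls. Of the 20 macrophage and monocyte genes 5 were called lower in control females than in control males (Ctss, Mpeg1, Cd53, Trem2 and Ms4a7). Among genes called higher with PSD in females, the control females started lower than the control males in Trem2 (-0.68 ± 0.160, adjusted p = 0.00512), Fcrls (-0.53 ± 0.133, adjusted p = 0.00791), Sepp1 (-0.50 ± 0.117, adjusted p = 0.00474) and Spp1 (-1.32 ± 0.213, adjusted p = 1.30e-04), and higher in Cbr2 (0.47 ± 0.152, adjusted p = 0.0356). None of the 10 markers was called in this comparison.

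Of 14 complement genes 0 were called with PSD averaged over restraint in females. Of 20 genes raised in activated or lipid-laden phagocytes 17 were tested and 2 were called higher with PSD in females, Spp1 (osteopontin, 0.68 ± 0.170) and Apoe (0.56 ± 0.159). Their means were 91.1 and 357 CPM, against 26.7 CPM for C1qa, the highest of the markers, and which cells made them was not tested. Apoe was 902 CPM in PSD female 1 and at most 542 CPM in the other females, and without that mouse its log2 fold change was 0.37 (adjusted p = 0.0509), whereas Spp1 was 0.68 without it (adjusted p = 0.0518). Both female calls were lost with either score and with 10 (Spp1) and 12 (Apoe) of the 16 females left out singly. In all mice Spp1 was called with PSD averaged over restraint (0.48 ± 0.120, adjusted p = 0.0191), with each of the 28 mice left out and with either score (adjusted p = 0.0445 and 0.0424), and for PSD + restraint against control (0.59, adjusted p = 0.0190), while Apoe was not called. Il1b, the cytokine, was the 1 gene of this list called for restraint alone in each sex, with log2 fold changes of 2.82 ± 0.236 in females and 1.82 ± 0.274 in males. For PSD + restraint against control it was called in females (2.43), males (2.03) and all mice (2.23). Cd9 was called there in males (0.44, adjusted p = 0.0186, 2.56% of genes) and in all mice (0.35, adjusted p = 0.00271, 5.46% of genes). In all mice it was lost without PSD + restraint male 2 and with the lobe score (adjusted p = 0.0582).

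Cd68 tracked the other markers unevenly within groups, with r from 0.51 with C1qb and 0.42 with C1qc to -0.43 with Cd163. Low r was not particular to it. Cd163 had r of 0.06 with C1qa, -0.0002 with C1qb and -0.03 with C1qc, though 0.45 with Csf1r and with Cx3cr1. The median r of the Cd68 deviations with the other 9 was 0.157, against 0.340 for the 36 pairs without Cd68. Among 15451 genes with a mean of at least 1 CPM, the 6 most like Cd68 were Terf2ip, Pgp_, Smox, Zfp787, Zbtb17 and AK040602 (r between 0.71 and 0.75 over 28 mice). The 6 most like the mean of the other 9 markers were Fcgr2b (an inhibitory Fc receptor, r = 0.818), C4b (a complement component), Tmem119, Nrip2, Eno2 and Dlg3 (lowest r = 0.740). These r describe the 28 libraries, which share depth and tissue composition, and carry no test. The summed level of lymphocyte genes was 7.79 to 11.6 CPM in females and 10.3 to 17.2 CPM in males, that of red cell genes 386 to 3226 CPM and that of endothelial genes 193 to 279 CPM over all mice, and of these 3 lists 0 genes were called with PSD averaged over restraint in either sex. Of the neutrophil genes 0 of 6 tested were called in females and 0 of 8 in males, while 4 of 8 were called higher in all mice, where 2.52% of genes were called. PSD + restraint male 2 had 131.7 CPM of neutrophil genes, far above every other mouse. The calls in all mice were not tested without it.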

How the data were processed

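Counts of paired-end reads per gene were deposited by the authors for 28 libraries made with a stranded mRNA kit. Alignment to mm10 was by MapSplice and assignment of reads to UCSC genes by HTSeq 0.9.1, both run by the authors, and whether strand was used in counting is not given in the sources used here. The authors' table of normalized values was not used. Each mouse is one library and was grouped by its labels. Replicates of a group differed by more than sampling noise (in 37 pairs of libraries from the same group, chi-square divided by its degrees of freedom was at least 6.43).

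Counts were fitted in R 4.3.3 with edgeR 4.0.16 (TMM, filterByExpr, quasi-likelihood test) over 18059 genes in females, 18271 in males and 18936 in all mice with sex as a term, and p-values were adjusted by Benjamini-Hochberg over all genes tested, with the thresholds adjusted p of 0.05 and log2 fold change of 0.322. Values are log2 fold changes ± SE, and 95% intervals use the normal approximation. Totals of 14024465 to 52948531 counts set the counting error, which was largest for Cd163 (12 to 83 counts). Correlations are Pearson's r of log2 CPM after subtraction of group means. On simulated counts with 200 genes changed by a log2 fold change of 1, edgeR recovered 153 with 5 false calls for PSD + restraint against control in females (17872 genes) and 147 with 8 in males (18130 genes). The changes reported for the markers were smaller than 1, so this recovery does not describe how often changes of their size would be called.

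The members and gene lists were chosen with earlier results of these data known. By the rule for named genes these are the 10 members, list genes called in the comparison described (at most 6 per list) and the 6 genes most like Cd68 and most like the mean of the other 9 members. The rule also allowed the most abundant genes of each list, which are not given. Csf1, Cx3cl1 and Wdr48 were named beside the rule, as ligands or an overlapping gene of a member, with their values known. Positions and lengths are from GENCODE (GRCm38), and promoters from RefSeq. Alternatives were DESeq2 1.42.0, other size factors, filters and thresholds, a replicate block, the edgeR robust option, lobe and forebrain scores as covariates, only the groups compared, and each mouse left out. Alternatives that joined DESeq2 with a TPM filter, that left out PSD female 1 with male control 1, or that concerned genes other than the members were chosen after the data were seen.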

Additional observations from a re-analysis of the deposited data

Results flagged for a closer look

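Within 50 groups of 4 mice and a single marker gene, 2 had a sample whose gap to its neighbour took up most of the group's range, where chance alone, at 1 in 20, would give 2.5. Csf1r was 31.8 CPM in PSD + restraint female 4, against 25.2 CPM in the next highest mouse of that group. Tyrobp was 9.39 CPM in restraint female 4, against 7.87 CPM in the next highest mouse. Neither gene was called in any comparison.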

How the results depend on the processing

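The number of called markers stayed within 1.5 times its value in 20 of 26 comparisons, among them all 7 male ones, under 12 or 13 settings and with each mouse of the fit left out (16 females, 12 males or all 28). For PSD + restraint against control in females (2 called) it was 1 (Cd68, with C1qa lost) with DESeq2 size factors, with no filter, with the replicate block and with the forebrain score, 0 with the neurointermediate lobe score and 1 to 2 with a mouse left out. With only the groups compared it was 3 (Cd68, C1qa and C1qc). Against restraint in females (1 called) it was 0 with the block, with the lobe score and with only the groups compared, and 0 to 1 with a mouse left out. For PSD averaged over restraint in females (1 called) it was 2 with at least 10 counts in every mouse, with a mean TPM of at least 1 and with no fold threshold, 0 with the lobe score and 1 to 3 with a mouse left out. For PSD against control in females (0 called) it was 0 to 1 with a mouse left out. In all mice (1 called each) it was 2 for PSD + restraint against control with the TPM filter and with the block, and 1 to 2 with a mouse left out, and 0 against restraint with only the groups compared. The cause was not tested. Of 8578 marker values under alternatives 8304 kept their sign and 274 uncalled ones changed it, 28 calls were lost and 20 gained, and 0 called values reversed. DESeq2 called 627 genes against 398 for PSD + restraint against control in females, 971 against 521 for PSD averaged over restraint and 92 against 6 for PSD + restraint against restraint, and in the first of these called 3 markers, with Aif1 added. Same-numbered mice did not deviate together (median r -0.0367 over 24 pairs of females and -0.102 over 15 of males), so the numbers were not taken as pairs. Depth limits Cd163, Mrc1 and Aif1 most.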
